A study of Mus musculus with 468 samples.

Results

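Transcripts of 8 genes of T cells were followed across the fat of outbred mice: Cd3d, Cd3e, Cd3g, Cd4, Cd8a, Lck, Trac and Gata3. They were picked by gene symbol from the 23180 genes of the deposited count table, and all 8 were present once and passed the filter on low counts that 18380 genes passed. The series holds 468 adipose libraries, each from a different Diversity Outbred mouse, an outbred stock descended from inbred founder strains that carries no engineered allele. Every mouse received the same high-fat, high-sugar diet, labelled as 45 percent fat, and the study's methods give the fat as the gonadal pad of adult mice of both sexes. The labels give 1 group, with no sex, generation or batch. The main split of libraries was therefore by the summed level of the Y chromosome genes Ddx3y, Eif2s3y, Kdm5d and Uty. This level was 137 to 295 CPM (counts per 1e+06 counts of the library) in 241 libraries and 0 in the other 227. Further splits were made by Cd3e, by depth, by blocks of mouse and library numbers and, after the values were seen, by the gene Fxyd4. Each library held 35.3 to 138 (median 82) times 1e+06 estimated read counts. The adipocyte genes Adipoq and Fabp4 were abundant, with means of 2060 and 9530 CPM. The tissue was bulk, so fewer T cells and less of a transcript per T cell cannot be told apart.

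A T cell recognizes antigen through its receptor, in most T cells a pair of alpha and beta chains whose constant parts are coded by Trac and by Trbc1 or Trbc2. The receptor has no signaling tail of its own and relies on the CD3 chains, coded by Cd3d, Cd3e and Cd3g, which are phosphorylated by the kinase Lck once the co-receptor CD4 (helper cells) or CD8 (cytotoxic cells) brings Lck to the receptor. Gata3 is a transcription factor needed for early T cells and for the helper cells that make type 2 cytokines, and it is also made outside the immune system, for instance in epithelia of the urogenital tract. T cells of visceral fat are known to sit among macrophages, marked by the surface protein F4/80 that Adgre1 codes for, and B cells, marked by the inhibitory receptor that Cd22 codes for.

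The 3 CD3 genes lie side by side on chromosome 9 of GRCm38. Cd3g occupies 44969572 to 44980431 on the minus strand, Cd3d 44981786 to 44987339 on the plus strand and Cd3e 44998740 to 45009627 on the minus strand, so that Cd3g and Cd3d start 1355 bases apart and point away from each other. The 250 bases before each start (RefSeq, GRCm38.p6) are shown because these genes moved together in the results that follow. RefSeq places the start of Cd3e slightly inside the gene bounds just given. Capitals mark the searched motifs, each sought on both strands and without regard to overlap with another motif. The letters AGATAA stand for factors of the GATA family, CAGGTG for an E-box, AGGAAG for factors of the ETS family, TGTGGT for factors of the RUNX family and TATAAA for the core promoter box.
Cd3d, chr9:44981536-44981785, plus strand: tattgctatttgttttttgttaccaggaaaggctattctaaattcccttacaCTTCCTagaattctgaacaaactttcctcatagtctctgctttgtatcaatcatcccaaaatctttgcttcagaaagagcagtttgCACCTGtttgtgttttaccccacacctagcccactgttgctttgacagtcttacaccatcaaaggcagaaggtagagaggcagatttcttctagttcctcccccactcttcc
Cd3e, chr9:45009612-45009861, minus strand: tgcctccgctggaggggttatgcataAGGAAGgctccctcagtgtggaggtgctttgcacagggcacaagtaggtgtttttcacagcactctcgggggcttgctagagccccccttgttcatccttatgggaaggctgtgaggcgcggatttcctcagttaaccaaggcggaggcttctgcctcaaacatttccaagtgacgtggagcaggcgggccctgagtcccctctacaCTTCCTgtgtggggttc
Cd3g, chr9:44980432-44980681, minus strand: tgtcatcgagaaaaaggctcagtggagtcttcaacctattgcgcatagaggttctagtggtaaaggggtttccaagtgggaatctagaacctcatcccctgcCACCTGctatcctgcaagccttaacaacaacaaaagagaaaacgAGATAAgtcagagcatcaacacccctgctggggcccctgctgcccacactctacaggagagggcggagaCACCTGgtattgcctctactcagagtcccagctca

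None of these windows held TATAAA, which 12.4% of 32851 promoter windows of this length held. Cd3d held 1 E-box and 1 ETS match, Cd3e held 2 ETS matches, and Cd3g held 2 E-box matches and 1 GATA match at 104 bases before the start. An ETS match was present in 29.5% of all windows, an E-box match in 17.2%, a RUNX match in 14.0% and a GATA match in 9.99%, so none of these was rare. The promoter of Lck nearest to the 3′ end of the gene held 1 E-box and 1 ETS match and its other promoter 3 ETS matches and 1 RUNX match, while the windows of Cd8a and Gata3 held no match. A match of letters describes the window and is not evidence of a bound factor.

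The other genes lie apart. Cd4 is at chr6:124864692-124888221 (minus strand), Cd8a at chr6:71373427-71379173 (plus strand), Lck at chr4:129548344-129573641 (minus strand), Trac at chr14:54220521-54224206 (plus strand) and Gata3 at chr2:9857078-9890034 (minus strand). Cd3e overlaps the annotated genes Gm48719 (antisense) and Gm48720, Lck holds Mir8119, and Gata3 overlaps Gm13256 and 4930412O13Rik (both antisense) and 9230102O04Rik. The sources do not say whether counting used strand, so reads of Cd3e and Gata3 could include reads of these partners.

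All T cell genes were scarce in fat and varied widely between mice. For Cd3e, a signaling chain that every T cell receptor needs, the lowest, median and highest libraries held 0.089, 1.03 and 10.7 CPM (mean 1.33 ± 1.08, SD, n = 468). Cd3d ran from 0.0286 through 0.484 to 5.79 CPM (0.628 ± 0.587) and Cd3g from 0.0949 through 0.792 to 10.8 CPM (1.04 ± 0.91). The kinase gene Lck ran from 0.314 through 2.01 to 18.0 CPM (2.58 ± 2.01). The quartiles of Cd3e were 0.686 and 1.63 CPM, and a few libraries stood several times higher than these.

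The co-receptor genes differed in spread. Cd4 ran from 0.267 through a median of 1.69 to 16.2 CPM (2.06 ± 1.6) and Cd8a from 0 through 0.501 to 11 CPM (0.949 ± 1.4). The ratio of the upper to the lower decile of the levels was 4.62 for Cd4 and 12.3 for Cd8a, against 4.6 to 6.79 for Lck and the CD3 genes. Cd8a had fewer than 10 counts in 24 libraries, 1 of them at 0, so its lowest values are imprecise. The same mouse, number 98, held the highest level of Cd3d, Cd3e, Cd3g, Cd4, Cd8a and Lck.

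Trac had the highest median of the 8 genes, and Gata3 the highest single values. Trac ran from 0.372 through a median of 3.77 to 34.2 CPM (5.16 ± 4.63), and the highest library, mouse 375, was not among the high ones for Cd3e (0.207 CPM there). Gata3 ran from 0.327 through 1.34 to 187 CPM (5.59 ± 15.6), with a decile ratio of 15.2. Its mean lay far above its median because 53 libraries held 8 CPM or more, the lowest of these at 8.8 CPM and the next library below at 7.93 CPM.

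**Figure D1:**
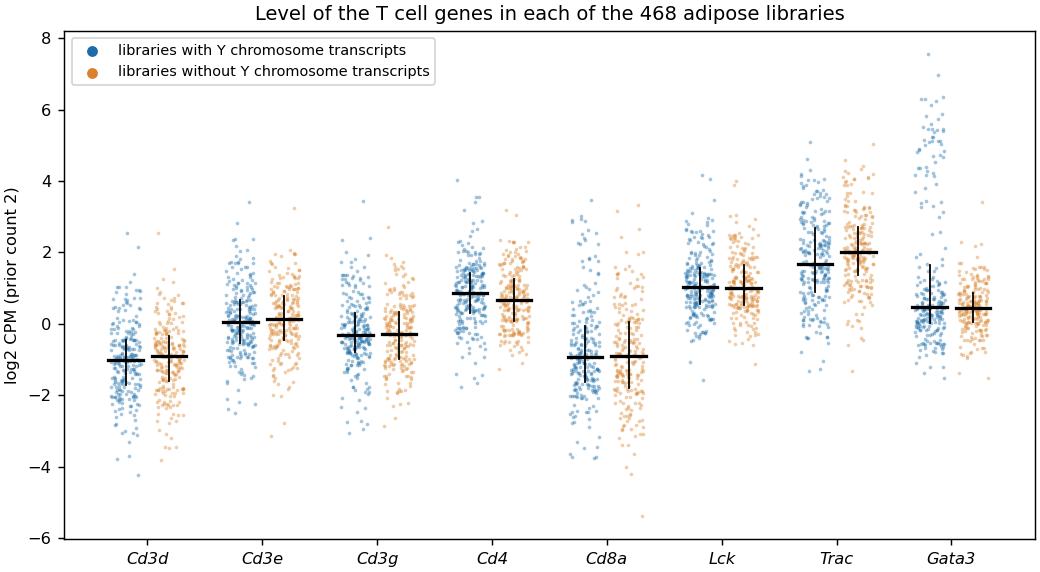
Level of each T cell gene in every library on a log2 CPM axis (prior count 2), with libraries split by Y chromosome transcripts; bars mark the median and lines the quartiles. The 6 CD3, co-receptor and Lck genes have similar medians in both sets of libraries, while the high values of Gata3 are found almost wholly among libraries with Y chromosome transcripts.

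Levels can be compared between genes only per length. Trac had the highest median at 4.03 CPM per kb of exon, followed by Lck (0.685), Cd4 (0.418), Gata3 (0.337), Cd3d (0.266), Cd3e (0.253), Cd3g (0.242) and Cd8a (0.138). The gap from Trac to Lck was 2.56 on the log2 scale, more than the larger SD of both genes between libraries (1.17). The medians of every other pair of neighbors in this order lay closer than the larger SD of both genes, with gaps of 0.06 to 0.81 on the log2 scale. This compares neighbors only, and sets medians against the spread between mice rather than comparing the genes within each library. The beta chain constants Trbc1 and Trbc2 had medians of 1.08 and 1.48 CPM per kb, both below that of Trac. Counting noise alone would give between 0.706% (Trac) and 6.35% (Cd3d) of the variance of log2 CPM of these 8 genes.

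The 6 genes for CD3 chains, co-receptors and Lck rose and fell together between mice. All 15 pairs among them correlated, with Pearson's r of log2 CPM from 0.605 (Cd4 with Cd8a) to 0.863 (Cd3e with Lck) and a median of 0.742, and Spearman's rho from 0.6 to 0.844. For every pair the permutation p was 1e-05, the least that 100000 resamples allow, and the p adjusted for 28 pairs (Benjamini-Hochberg) was 1.27e-05. Without the 2 libraries farthest from the median, r was still 0.6 to 0.857. Among 5 blocks of consecutive library numbers (93 or 94 libraries each) it was 0.4 to 0.883, and among 5 blocks of mouse numbers 0.55 to 0.899.

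The pairs of Lck with the CD3 genes were among the highest. Lck correlated with Cd3e, Cd3g and Cd3d at r = 0.863, 0.857 and 0.813, Cd3e with Cd3g at 0.848, and Lck with the co-receptor genes Cd4 and Cd8a at 0.799 and 0.742. The median of the 15 pairs was 0.772 in the libraries with Y chromosome transcripts and 0.712 in those without, and no pair differed between the sets beyond permutation of the labels (adjusted p = 0.975 for each of the 15). With Adgre1 and Cd22 held constant by partial correlation the median was 0.728. The correlated libraries share a depth and composition, and over all 18379 other genes past the filter the median r with Cd3e was -0.00395.

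The same mice carried the high levels. Of the 47 libraries highest in Cd3e, 38 (80.9%) were also among the 47 highest in Lck, 31 (66.0%) in Cd8a and 27 (57.4%) in Cd4. Cd4 and Cd8a shared 23 of 47 (48.9%). In all, 17 libraries were among the 47 highest for all 6 genes and 383 for none. For Trac and Gata3 the overlap with Cd3e was only 6 (12.8%) and 7 (14.9%) of 47 libraries. With an unrelated gene the share expected is that of 47 in 468 libraries.

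**Figure D2:**
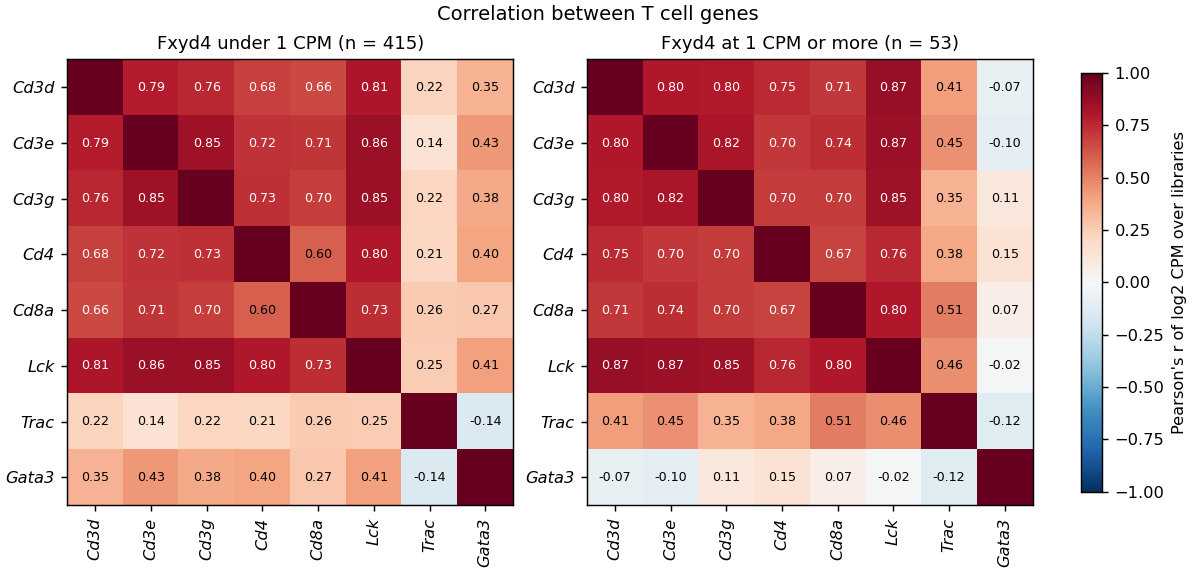
Pearson's r of log2 CPM for every pair of T cell genes, on a color scale from -1 to 1, in 415 libraries with Fxyd4 under 1 CPM (left) and 53 with Fxyd4 at 1 CPM or more (right). The 6 upper rows form a block of high values in both panels, r of Trac with that block is 0.143 to 0.263 on the left and 0.347 to 0.509 on the right, and r of Gata3 with it is 0.273 to 0.430 and -0.0967 to 0.148. These differences between the panels were not tested.

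Trac departed from the other receptor genes. It correlated with each of the 6 genes above, but with r of only 0.161 to 0.279 (rho 0.163 to 0.283, adjusted p of at most 0.000487), and between blocks of libraries r ranged from 0.0212 to 0.442. In the 53 libraries with Fxyd4 at 1 CPM or more, described further on, it was 0.347 to 0.509 (adjusted p of at most 0.0137), and in the other 415 it was 0.143 to 0.263. Its r with its partner chains was 0.226 for Trbc1 and 0.266 for Trbc2, whereas Cd3e correlated with Trbc1 at 0.765 and with Trbc2 at 0.83 (7 such further relations examined, adjusted p = 1e-05 for each). Of the genes past the filter, Cd3e itself included, 5.46% had a larger r with Cd3e than Trac had. For the other CD3 genes, the co-receptor genes and Lck this share was 0.00544% to 0.12%. The lowest share was that of Lck, above which only Cd3e itself stood. The other constant gene chains of the receptor were chosen for this comparison after the values of Trac were seen.

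The ratio of Trac to the sum of Trbc1 and Trbc2, in CPM, made the departure visible per mouse. It ran from 0.221 through a median of 1.67 to 33.7, and it exceeded 10 in 18 libraries and lay under 1 in 124. In mouse 375 Trac stood at 34.2 CPM (2970 counts) with Trbc1 at 0.617 and Trbc2 at 0.395 CPM. In mouse 70 Trac stood at 2.82 CPM with Trbc2 at 12.0 and Lck at 14.9 CPM. High Trac with scarce beta chains and the reverse thus both occurred, and even the lower of these Trac values rested on 175 counts.

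The genes most like Trac, listed after its values were seen, were not T cell genes: Casp1 (r = 0.59), a caspase of the inflammasome, Ctsd (0.567), a lysosomal protease, Dhcr7 (0.543), the last enzyme of cholesterol synthesis, Vac14 (0.526), a scaffold for an endosomal lipid kinase, and Acoxl (0.525). Over the 12 macrophage markers the median r with Trac was 0.285 (range -0.222 to 0.329). It was 0.175 (range 0.00982 to 0.381) over 23 further T cell genes and -0.0183 over all genes. Within the libraries with Y chromosome transcripts the macrophage median was 0.487 and the T cell median 0.201. Within the others the lists were alike, at 0.19 and 0.187. Adgre1 stood at 105 CPM in mouse 375, which held Y chromosome transcripts, and at 35.4 CPM in mouse 70, which held none. The medians of Adgre1 in those sets of libraries were 62.4 and 38.1 CPM. The part of macrophage content in the level of Trac was not tested.

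**Figure D3:**
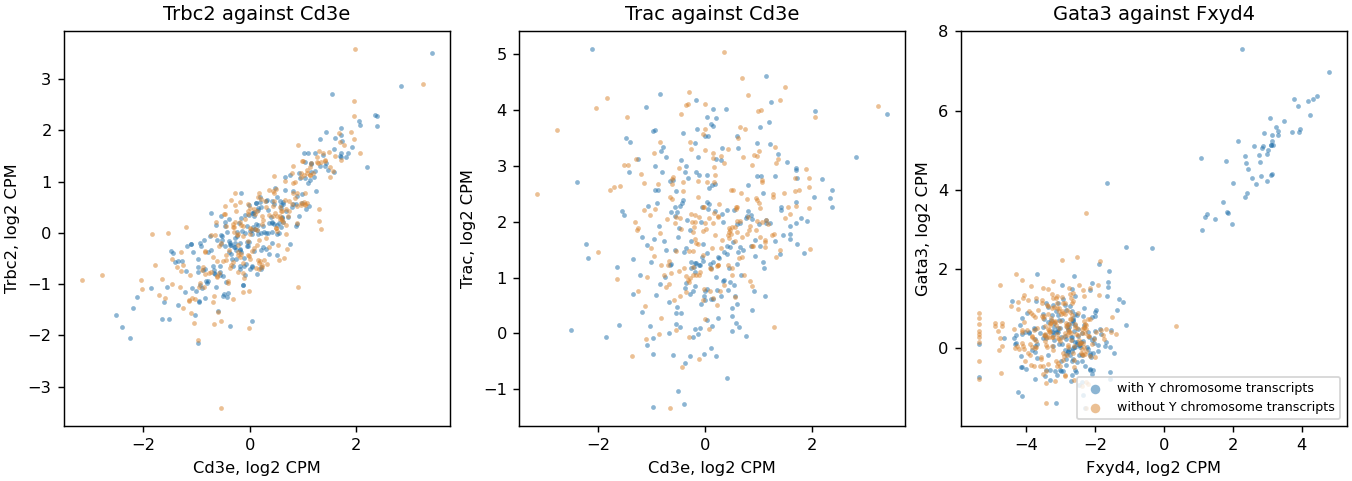
Trbc2 against Cd3e (left), Trac against Cd3e (middle) and Gata3 against Fxyd4 (right), log2 CPM on all axes, 1 point a library, colored by Y chromosome transcripts. Trbc2 follows Cd3e (r = 0.83), Trac scarcely does (r = 0.161), and Gata3 forms a separate cloud of libraries with high Fxyd4.

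High Gata3 was confined almost wholly to a separate set of libraries. Of the 53 libraries with Gata3 at 8 CPM or more, 51 also held at least 1 CPM of Fxyd4, a regulator of the sodium pump known from kidney and other transporting epithelia, and 52 held Y chromosome transcripts. Fxyd4 itself separated the libraries cleanly, with 53 from 1.26 CPM upward and 415 at no more than 0.757 CPM, and it was chosen for this split after the values were seen. Gata3 ran from 1.45 through a median of 32.1 to 187 CPM in the libraries with Fxyd4 at 1 CPM or more and from 0.327 through 1.27 to 18.0 CPM in the others. The ranges of Gata3 thus overlapped from 1.45 to 18.0 CPM, although 51 of the 53 libraries with Fxyd4 at 1 CPM or more held at least 8 CPM.

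Markers of duct epithelium and smooth muscle moved with this split. Pax2 and Pax8, transcription factors of the kidney and the genital ducts, had medians of 7.54 and 20.8 CPM in the 53 libraries and 0 in the others, although some of the others reached 17.5 and 59.3 CPM. The epithelial adhesion genes Epcam and Cdh1 had medians of 19.2 and 20.0 CPM against 0.456 and 0.2 CPM. The smooth muscle myosin Myh11 had medians of 1540 and 111 CPM and the muscle filament gene Des 214 and 30.2 CPM. Cd3e, in contrast, had medians of 1.24 and 1.0 CPM, Cd4 2.67 and 1.57 CPM, Cd22 5.53 and 3.11 CPM, and Trac 2.9 and 3.9 CPM. The part of non-fat tissue in the level of Gata3 was not tested.

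Because of these sets, the relation of Gata3 to the other T cell genes was read within each. Among the 415 libraries with little Fxyd4, Gata3 correlated with all 6 genes of CD3, co-receptors and Lck, at r = 0.273 to 0.430 (rho 0.266 to 0.441, adjusted p = 1.17e-05 for each). Among the 53 with more, r ran from -0.0967 to 0.148 and none of the 6 passed (adjusted p of at least 0.366). Trac and Gata3 correlated negatively over the 415 libraries (r = -0.143, rho -0.138, adjusted p = 0.00385). Over the 53 libraries r was -0.12 (adjusted p = 0.473).

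Among the genes most like Gata3 over all libraries were the ATP-gated channel gene P2rx1 (r = 0.878), the prostaglandin synthase gene Ptgs2 (0.871), the myosin phosphatase subunit gene Ppp1r12a (0.858) and Prdm10 (0.855). Without the 53 libraries r was 0.365, 0.2, 0.283 and 0.0619 in the same order, and within the 53 it was 0.725, 0.805, 0.72 and 0.795. The likeness was thus high within the libraries with Fxyd4 and low among the others. These 4 genes were picked by r over all libraries, and no such search was made within the 415. There r of Gata3 with the CD3, co-receptor and Lck genes was 0.27 (Cd8a) to 0.43 (Cd3e), a range that overlaps theirs.

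Cd4 exceeded Cd8a in nearly every mouse. The balance, log2 CPM of Cd4 minus log2 CPM of Cd8a, ran from -2.24 through a median of 1.60 to 5.86 (SD 1.1, n = 468), a median ratio of 3.03. Cd4 was the higher in 432 libraries (92.3%) and Cd8a in 35, and per kb of exon the counts were 426 and 42. The lowest library, mouse 408, held 0.99 CPM of Cd4 and 4.76 CPM of Cd8a (90 and 433 counts), and the highest, mouse 465, held 1.37 CPM of Cd4 (113 counts) and no count of Cd8a. A count of 0 allows up to about 3 counts, or 0.036 CPM, by counting error alone. Against that level Cd4 was 37.7-fold higher there, its own counting error left aside. The value of 5.86 depends on the prior count.

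The balance shifted toward Cd8a in mice with more T cell transcripts. It correlated with Cd3e at r = -0.322 (rho -0.292, permutation p = 1e-05, adjusted p = 4e-05 over 4 relations), with -0.382 to -0.255 among blocks of libraries and -0.323 without the 2 farthest libraries. In the 117 libraries with the lowest Cd3e the median balance was 1.79 and 1 library was higher in Cd8a. In the 117 with the highest Cd3e it was 0.98 and 28 libraries were. The fitted slopes per doubling of Cd3e were 1.10 ± 0.0415 (SE) for Cd8a and 0.667 ± 0.0275 for Cd4, both past the test (edgeR adjusted p of 2.86e-92 and 6.02e-82), so Cd8a changed more steeply. Cd3e correlated alike with Cd4 (r = 0.719) and Cd8a (r = 0.718). The negative r with the balance thus follows from the wider spread of Cd8a (SD of log2 CPM 1.38 against 0.89).

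In log2 CPM, no relation of the balance to the other cells passed over all libraries. With Adgre1 r was -0.0763 (adjusted p = 0.198), with Cd22 0.0634 (adjusted p = 0.227) and with mouse number -0.0122 (adjusted p = 0.794). With the deposited log2 values the relation to Cd22 did pass (r = 0.21, adjusted p = 4e-05). The relation to Adgre1 passed within the 241 libraries with Y chromosome transcripts (r = -0.185, adjusted p = 0.00782) and within the 53 libraries with Fxyd4 at 1 CPM or more (r = -0.532, adjusted p = 0.00016), and r was 0.031 in the libraries without Y chromosome transcripts. The difference between the sets with and without Y chromosome transcripts did not pass (adjusted p = 0.322).

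Genes of killing function were higher where the balance lay toward Cd8a, as T cell genes in general were. All 10 tested cytotoxic genes had a negative r with the balance (median -0.292, range -0.41 to -0.211), and so did all 23 further T cell genes (median -0.185), among them Cd8b1, the partner chain of CD8, at -0.549. Of the 18378 other genes past the filter 46.2% had a negative r (median 0.00574). The cytotoxic genes correlated with both co-receptors, with a median r of 0.572 with Cd8a and 0.52 with Cd4. Log2 CPM of Cd8a had the larger SD (1.38 against 0.89 for Cd4). A gene with equal positive r with both thus has a negative r with the balance, so the sign alone says little. All 11 B cell genes had a small positive r (median 0.0914), and the 12 macrophage genes were mixed (3 positive, median -0.06). Cd8a and Cd8b1 correlated at r = 0.771 (adjusted p = 1e-05). Outside the 8 genes, and among those averaging 1 CPM or more, Ccl5, a chemokine of activated cytotoxic cells, was the most like Cd8a (r = 0.717), a search made after the values were seen. Those most like Cd4 were the adapter genes Grap2 (0.732) and Sh2d2a (0.731), Gimap3 (0.726), Traf3ip3 (0.725) and Trbc2 (0.721).

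**Figure D4:**
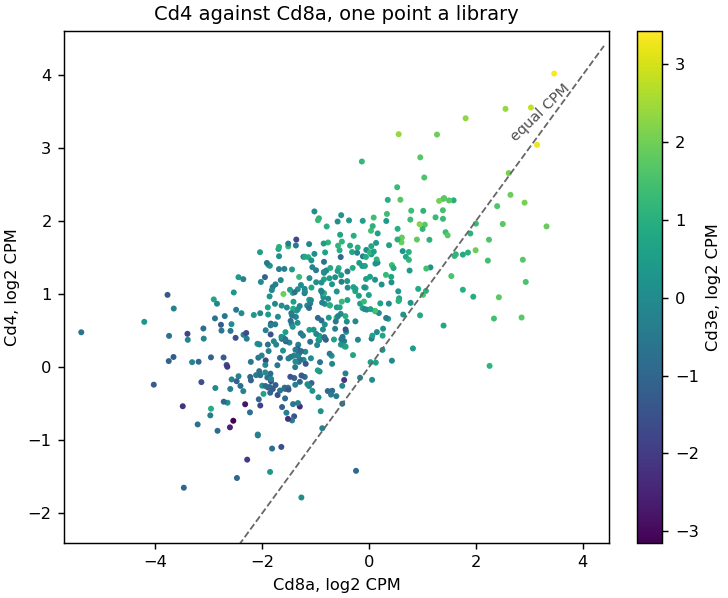
Cd4 against Cd8a, log2 CPM, 1 point a library, colored by log2 CPM of Cd3e; the dashed line marks equal CPM. Of the 468 libraries, 432 lie above the line, and the 35 below it are mostly among those with high Cd3e.

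Most T cell genes had a larger r with the B cell gene Cd22 than with the macrophage gene Adgre1, a difference that was not itself tested. Cd22 ran from 0.181 through a median of 3.27 to 30.4 CPM and Adgre1 from 10.7 through 47.5 to 657 CPM. For the 6 genes of CD3, co-receptors and Lck, r with Cd22 was 0.251 (Cd8a) to 0.472 (Cd4), each with adjusted p = 2e-05 over 16 relations. With Adgre1 it was 0.0875 (Cd3e) to 0.191 (Cd4), and 5 of the 6 passed, Cd3e being the exception (rho 0.0825, adjusted p = 0.0627). Adgre1 and Cd22 themselves correlated at r = 0.533.

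Held against each other, only the relation to Cd22 remained positive for most of them. Given Adgre1, r of the 6 genes with Cd22 was 0.185 to 0.445. Given Cd22, r with Adgre1 was -0.109 for Cd3e (adjusted p = 0.0481), -0.0815 for Cd4, -0.0678 for Lck, -0.0644 for Cd3d, -0.0632 for Cd3g and 0.0596 for Cd8a, the last 5 not past the test. Trac showed the opposite order, with r = 0.312 with Adgre1 (rho 0.304, adjusted p = 2e-05), still 0.31 given Cd22, and only 0.0963 with Cd22 (rho 0.0859, adjusted p = 0.0423). Gata3 had r = -0.0505 with Adgre1 (adjusted p = 0.276) and 0.265 with Cd22 (adjusted p = 2e-05).

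These relations were not the same in both sets of libraries. Adgre1 had a median of 62.4 CPM with and 38.1 CPM without Y chromosome transcripts, and Cd22 4.5 and 2.43 CPM. Of 48 correlations compared by permuting the labels, 3 differed: Trac with Adgre1 (r = 0.551 with and 0.197 without, adjusted p = 0.00672), Trac with Cd22 (0.312 and -0.0231, adjusted p = 0.00768) and Cd4 with Adgre1 (0.0624 and 0.338, adjusted p = 0.0493). Gata3 with Adgre1 (-0.252 and -0.00174) missed the threshold (adjusted p = 0.0581). Blocks of mouse numbers also varied, with r of Cd3e from -0.171 to 0.248 with Adgre1 and from 0.0103 to 0.445 with Cd22.

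**Figure D5:**
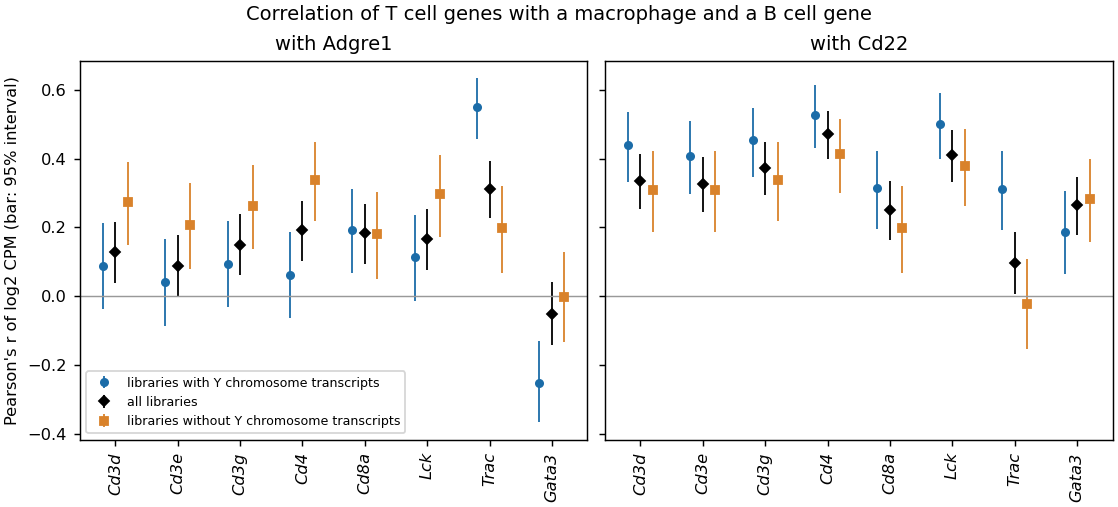
Pearson's r of log2 CPM of each T cell gene with Adgre1 (left) and Cd22 (right), in all 468 libraries, the 241 with and the 227 without Y chromosome transcripts; bars are 95% intervals of r. The values for Cd22 lie above those for Adgre1 in all genes but Trac, and Trac has its highest r, 0.551, with Adgre1 in the libraries with Y chromosome transcripts.

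A fit across all tested genes (edgeR quasi-likelihood, Benjamini-Hochberg over all genes) gave the slopes on these markers with the background. On Adgre1, 7 of the 8 genes rose, against 34.4% of all genes tested, from 0.167 ± 0.0507 (SE) per doubling for Cd3e to 0.418 ± 0.0743 for Cd8a. The call of Cd3e was lost with limma (0.0927, adjusted p = 0.0731). Gata3 fell by 0.304 (SE 0.113, adjusted p = 0.0104), as 43.0% of genes did, but this call was lost with limma (-0.0901, adjusted p = 0.312) and without the 47 shallowest libraries (-0.000899, adjusted p = 0.995). It held without the 53 libraries with Fxyd4 at 1 CPM or more (-0.144, adjusted p = 0.00184). The fall was steeper with Y chromosome transcripts (-0.607, adjusted p = 1.41e-09) or Cd22 (-0.844, adjusted p = 7.89e-12) in the model. On Cd22, 7 rose, against 35.9% of genes, from 0.277 ± 0.0338 for Cd3e to 0.796 ± 0.0881 for Gata3, and none fell, against 35.0%. The slope of Gata3 was 0.0896 without the 53 libraries with Fxyd4 at 1 CPM or more, 0.297 with the presence of Y chromosome transcripts in the model and 0.351 with limma, each past the test. Trac did not pass on Cd22 (0.0831 ± 0.0424, adjusted p = 0.0692), but it rose with Y chromosome transcripts in the model (0.151, adjusted p = 0.00393), without the 47 shallowest libraries (0.111, adjusted p = 0.0186) and without the 53 libraries (0.0957, adjusted p = 0.0491), and fell with Adgre1 in the model (-0.137, adjusted p = 0.0155). Since many genes moved with Adgre1 and Cd22, a call alone says little about the T cell genes, and with Cd22 in the model only Cd8a (0.236) and Trac (0.505) still rose with Adgre1.

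On Cd3e far fewer genes moved, 10.1% rising and 13.5% falling, and 6 of the 7 other members rose. The slopes per doubling were 0.872 ± 0.0235 for Cd3g, 0.832 ± 0.0283 for Cd3d, 0.768 ± 0.0191 for Lck and 0.431 ± 0.115 for Gata3 (edgeR adjusted p = 0.00212), beside those of Cd8a and Cd4 given above. The call of Gata3 was lost with Adgre1 and Cd22 in the model (0.16, adjusted p = 0.293). Trac did not pass (0.0846 ± 0.0495, adjusted p = 0.212), although it did with limma (0.196, adjusted p = 0.00465), and no member fell. The median slope over all genes was -0.004.

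The genes most like Cd3e, among those with a mean of at least 1 CPM, were those of T and other lymphocytes. They included Trbc2 (r = 0.83), the lymphocyte GTPase genes Gimap3 (0.822) and Gimap7 (0.734), the T cell adapter gene Sh2d2a (0.808), the interleukin receptor chain Il2rb (0.794), Trbc1 (0.765), Sept1 (0.748), the chemokine receptor gene Cxcr3 (0.739) and the integrin gene Itgal (0.737). The most negative were weak, and belonged to genes active in most cells: Etf1 (-0.309), which ends translation, Pno1 (-0.293), for ribosome assembly, the proteasome subunit gene Psmd13 (-0.288), Klhdc10 (-0.285) and Dcaf10 (-0.284).

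Other genes of T cells and killer cells followed Cd3e. All 23 tested of 25 further T cell genes rose (median slope 0.596), led by the surface receptors Cd6 (0.896 ± 0.0327) and Cd5 (0.878 ± 0.0321) and by Cd8b1 (0.847 ± 0.0388). All 10 tested cytotoxic genes rose (median 0.651), led by Ccl5 (0.769 ± 0.0318), Nkg7 (0.73 ± 0.0338), of cytotoxic granules, and the protease Gzmb (0.664 ± 0.0493). All 4 constant genes of the gamma and delta receptor chains rose (median 0.441), led by Tcrg-C2 (0.603), as did 5 of 6 natural killer genes (median 0.494), led by the receptor gene Klrb1c (0.556 ± 0.0591). These genes are partly shared between T and natural killer cells, and the background share of rising genes was the 10.1% given above.

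The lists of regulatory and resting T cell genes had lower median slopes, with wide ranges of 0.04 to 0.646 and 0.0159 to 0.475. Mean levels reached 7.56 CPM in the first list and 113 CPM in the second, against 1.33 CPM for Cd3e. The part of cells other than T cells in these medians was not tested. Of 8 tested regulatory T cell genes 6 rose (median 0.204), led by Klrg1 (0.646 ± 0.0424), an inhibitory receptor, Foxp3 (0.548 ± 0.0369), the factor that defines these cells, and the checkpoint receptor Ctla4 (0.524 ± 0.0412). Of 9 genes of resting and recirculating lymphocytes 6 rose (median 0.136), among them the transcription factor genes Tcf7 (0.475 ± 0.0381) and Lef1 (0.385 ± 0.0538). None of 5 tested genes of helper cell cytokines and their regulators passed, with Stat4 at 0.0559, Il4 at 0.0514 and Maf at 0.0309. The only thymocyte gene tested, Cd1d1, which other cells also express, fell by 0.0708 (SE 0.024, adjusted p = 0.0189).

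B cell genes rose with Cd3e and few macrophage genes did. All 11 B cell genes rose (median 0.473), led by the complement receptor Cr2 (0.606 ± 0.0669), Fcer2a (0.533 ± 0.0625) and the B cell factor Pax5 (0.503 ± 0.056). Of 5 plasma cell genes 3 rose, led by the antibody joining chain Jchain (0.953 ± 0.0715) and Mzb1 (0.813 ± 0.0611). Of 8 dendritic cell genes 4 rose, led by Xcr1 (0.284 ± 0.033), and of 12 macrophage genes 3 rose (median 0.0484), the complement genes C1qb (0.0941 ± 0.0299) and C1qa (0.0851 ± 0.0259) leading, while Adgre1 did not pass (0.0809 ± 0.046, adjusted p = 0.197). Of 4 tested genes of type 2 innate lymphoid cells 1 rose, Il1rl1 (0.138 ± 0.0305), the receptor for interleukin 33.

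Some genes of lymph node tissue rose as well. Of 5 tested lymph node stroma genes 2 rose, the chemokine genes Cxcl13 (0.511 ± 0.065), which draws B cells, and Ccl19 (0.254 ± 0.0646), which draws T cells. The other 3 did not pass, among them the lymph node chemokine gene Ccl21a (0.0905 ± 0.081, edgeR adjusted p = 0.448). In the library with the highest Cd3e, mouse 98, the B cell gene Cd79a stood at 15.6 CPM and Ccl21a at 48.3 CPM. In the next, mouse 60, they stood at 2.22 and 20.9 CPM. In mouse 409, next after mouse 60 in Cd3e, Cd79a stood at 12.4 CPM. The mean of Cd79a over all libraries was 4.19 CPM, and of these libraries only mouse 60 lay below it. Over all libraries Cd79a rose with Cd3e (0.468 ± 0.054, edgeR adjusted p = 4.45e-15). The part of lymph node tissue in the levels of the T cell genes was not tested.

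Genes of fat and its supporting cells mostly stayed short of the threshold. Of 6 adipocyte genes 1 fell and none rose (median slope -0.0363), with Adipoq at 0.0115 ± 0.0239 and Fabp4 at -0.0341 ± 0.0145. Of 8 progenitor genes 1 rose, Ly6a (0.0953 ± 0.0188), and none of 5 mesothelial or 4 epithelial genes passed. Of 5 smooth muscle genes 4 rose, led by Actg2 (0.458 ± 0.155), Cnn1 (0.389 ± 0.135) and Myh11 (0.306 ± 0.0912), and of 4 tested duct genes Fxyd4 did (0.595 ± 0.153). Without the 53 libraries with Fxyd4 at 1 CPM or more these 4 slopes were 0.353, 0.166, 0.0787 and 0.0266, none past the test (edgeR adjusted p from 0.093 to 0.773). The smooth muscle and duct lists were chosen after the values of Gata3 were seen.

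The order of mice and libraries left the T cell genes nearly untouched. On mouse number, which ran from 21 to 560, 23.7% of all genes passed in either direction, but of the 8 genes only Gata3 did (0.237 ± 0.0631 per 100 numbers, edgeR adjusted p = 0.00294). That call was lost with the presence of Y chromosome transcripts in the model and with limma. On library number, 219 to 701, 0.267% of genes and none of the 8 passed (edgeR adjusted p of at least 0.389), Gata3 alone having an unadjusted p under 0.05 (0.005).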

How the data were processed

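Adipose RNA of 468 mice, 1 library each, was made into poly-A selected libraries (KAPA mRNA HyperPrep) with ERCC spike-in and sequenced as paired ends. Per the study's methods, the authors quantified expected counts per gene with EMASE run by GBRS, aligning both mates as single ends to the joined transcriptome of the founder strains, and removed transcripts with under 1 read in many samples. The deposited expected counts are unscaled (66.8% whole within 1e-06), and the deposited log2 values are a variance stabilizing transformation by DESeq2. The build is GRCm38 per the submitters' processing notes. Removing batch with a mixed model is described, but its extent in the deposited log2 values is not given in the sources used here, so those served only as an alternative.

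The 18380 genes with at least 10 counts in 50% of libraries were scaled by TMM (factors 0.578 to 1.36) in edgeR 4.0.16 (R 4.3.3). Counts were rounded only for the edgeR and DESeq2 fits and for the DESeq2 size factors. Levels are CPM or log2 CPM with a prior count of 2. Correlations were tested by 100000 two-sided permutations and adjusted by Benjamini-Hochberg within each family. Slopes per doubling of Cd3e, Adgre1 or Cd22, or per 100 numbers, came from edgeR's quasi-likelihood test with adjustment over all genes at a threshold of 0.05. This fit was tested on simulated data. Alternatives were DESeq2 1.42.0, limma 3.58.1, other scalings, priors, filters and covariates, and sets of libraries. Gene positions were checked against GENCODE M21 and promoters come from RefSeq. Total counts of 35.3 to 138 times 1e+06 per library set the precision, and p-values reflect spread between mice.

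Named genes were the members, Adgre1, Cd22, the 10 genes most like Cd3e and the 5 most like Cd4 and Gata3, the 5 most negative with Cd3e, the 3 largest and any opposite slopes of each list, and 4 Y chromosome genes. Some genes this rule names are not reported here. Others are said to be chosen after their values were seen. The members and lists were chosen with earlier results of these data known. No pair of libraries held identical values.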

Additional observations from a re-analysis of the deposited data

Results flagged for a closer look

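In all, 3 correlations differed between the 241 libraries with and the 227 without Y chromosome transcripts, when the labels were permuted after centering and scaling within each set (48 correlations compared). For Trac with Adgre1 the r was higher by 0.354 in the libraries with Y chromosome transcripts (0.551 against 0.197, permutation p = 0.00014, adjusted p = 0.00672). For Trac with Cd22 it was higher by 0.335 (0.312 against -0.0231, p = 0.00032, adjusted p = 0.00768). For Cd4 with Adgre1 the difference was -0.276 (0.0624 against 0.338, p = 0.00308, adjusted p = 0.0493). The labels give no sex, and what else differs between these sets was not tested.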

How the results depend on the processing

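Of 1810 values under alternatives to the 191 reported values, 1676 were judged the same. Correlations and slopes had to keep their direction and side of the threshold. Medians had to move by less than an SD, and counts had to stay of similar size. Within libraries with Fxyd4 at 1 CPM or more, r of Gata3 turned to -0.0718 with Cd3d, -0.0967 with Cd3e and -0.0171 with Lck, r of the Cd4 and Cd8a balance with Adgre1 was -0.532, with Cd22 -0.125 and with mouse number 0.00373. Given Cd22, r with Adgre1 turned to -0.0644 (Cd3d), -0.109 (Cd3e), -0.0632 (Cd3g), -0.0815 (Cd4) and -0.0678 (Lck), leaving 1 member (Trac) with a positive r past the test, and the slopes on Adgre1 turned to -0.0191, -0.0611, -0.028, -0.0647 and -0.0192, leaving 3 members past the test. Given Adgre1, r of Trac with Cd22 was -0.0875 and its slope -0.137. Within the libraries with Y chromosome transcripts 2 members (Cd8a and Trac) had a positive r with Adgre1 past the test, and r of the balance with Adgre1 was -0.185. Without them that r was 0.031 and r of Trac with Cd22 -0.0231. With total count scaling r of Gata3 with Adgre1 was 0.0569, and with the deposited log2 values r of the balance with Cd22 was 0.210.

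With Adgre1 in the model 7812 genes passed on Cd22 (4083 rising, 3729 falling) against 13029 otherwise (6593 and 6436). On library number, 49 genes passed with edgeR (24 and 25), 90 with DESeq2 (55 falling), 138 without the filter (47 and 91), 26 without the 47 shallowest libraries (4 falling) and 0 with limma (0 rising, 0 falling, 1018 at an unadjusted p under 0.05). On mouse number 4362 passed (2149 rising) and 2522 with Y chromosome transcripts in the model (921 rising). No member, 0 of 8, then passed on mouse number, nor with limma, where Gata3 had edgeR and limma adjusted p of 0.803 and 0.489.

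The slopes on Cd3e that turned had not passed in the reported fit, apart from Prdm10 (0.156, adjusted p = 0.0184). With Adgre1 and Cd22 in the model they were -0.144 (Cdh1), -0.155 (Epcam), -0.0698 (Krt18), -0.0177 (Krt19), 0.0129 (Pparg), -0.00174 (Prdm10) and -0.0162 (Stat4). With Y chromosome transcripts they were 0.010 (Cd68), -0.0483 (Epcam) and 0.0141 (Hpgds), with limma 0.00498 (Cd68), 0.0157 (Hpgds) and 0.000503 (Msln), and without libraries with Fxyd4 at 1 CPM or more -0.0585 (Epcam), 0.0232 (Msln) and -0.00178 (Prdm10). They were 0.00101 for Cd68 with DESeq2 size factors and -0.000961 for Il17rb without the filter. The cause of these changes was not tested. The settings by Fxyd4 were chosen after seeing the data. No paired analysis was possible because the labels give 1 group. Depth limits Cd3d and Cd8a most among the members, with 16 and 24 libraries under 10 counts.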
